A study of Sus scrofa with 36 samples.

Results

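The genes described here are 4 genes of lysophospholipid handling, MFSD2A, TMEM86B, LPCAT3 and PEMT, in the liver of 36 castrated male pigs, out of 10511 named genes that the array measured. Their probes were taken from the scanner tables by gene name, transcript accession or description, and all 10 probes found were well above background on at least 6 of the 36 arrays. The dimmest of the 10, MFSD2A probe 3, passed with 11 arrays, and no probe of these genes fell short. MFSD2A and TMEM86B were chosen because their signal differed between temperatures, so their differences between temperatures are given as a description with no test. LPCAT3 and PEMT belong to the same metabolic neighbourhood. The pigs were Large White (LW), a breed selected for growth, Creole (CR), a local breed of the Caribbean, and their cross (F1). Each of these 3 breeds gave 6 thermoneutral animals (TN, 24 °C) and 6 heat-stressed animals (HS), so that a breed holds 12 animals and a temperature 18. The sample labels give 30 °C for HS and the growth protocol gives 32 °C, with an exposure of a few days. TN animals were slaughtered before the rise in temperature and HS animals after it, and the study reports that feed intake fell under heat. Heat, lower feed intake, day of slaughter and a few days of age therefore cannot be told apart. The study used blocks of 4 littermates of a breed, spread over pens and temperatures, but the labels give neither litter, father, mother nor pen. A breed therefore rests on few litters, and the p-values measure the spread between animals without that structure.

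Lysophospholipids are phospholipids that have lost a fatty acid chain. MFSD2A is a sodium-dependent transporter that carries lysophosphatidylcholine into cells, best known for bringing docosahexaenoic acid across the blood-brain barrier, and in rodent liver it is induced by fasting. TMEM86B is a lysoplasmalogenase, which cleaves the ether-linked lysophospholipids left when plasmalogens lose a chain. LPCAT3 puts a polyunsaturated chain back onto lysophosphatidylcholine, and PEMT methylates phosphatidylethanolamine to phosphatidylcholine, a route used mainly in liver.

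Each gene is read by probes of 60 bases, numbered here within a gene from the brightest to the dimmest. MFSD2A has 3 probes, TMEM86B 2, LPCAT3 1 and PEMT 4. In assembly Sscrofa11.1, MFSD2A lies on chr6:95738961-95753245, TMEM86B on chr6:59424127-59428641, LPCAT3 on chr5:63707674-63746369 and PEMT on chr12:60880367-60919279. The probe sequences below are shown because the probes of PEMT did not give the same result, as described further on. They come from the scanner tables and run 5′ to 3′. Probes with no open forward reading frame or with a long run of A, MFSD2A probes 1 and 3 and PEMT probe 1, are left out. The capitals mark the 36 bases that PEMT probe 2 and PEMT probe 3 share.
PEMT probe 2: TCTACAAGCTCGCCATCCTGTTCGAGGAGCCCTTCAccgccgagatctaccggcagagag
PEMT probe 3: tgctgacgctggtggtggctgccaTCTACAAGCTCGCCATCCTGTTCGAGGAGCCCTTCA
PEMT probe 4: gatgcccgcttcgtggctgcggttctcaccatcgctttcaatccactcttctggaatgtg
TMEM86B probe 1: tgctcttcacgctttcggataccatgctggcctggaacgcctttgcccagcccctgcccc
TMEM86B probe 2: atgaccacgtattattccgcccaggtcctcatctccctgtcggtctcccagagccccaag
LPCAT3 probe 1: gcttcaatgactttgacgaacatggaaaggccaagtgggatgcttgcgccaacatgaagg
MFSD2A probe 2: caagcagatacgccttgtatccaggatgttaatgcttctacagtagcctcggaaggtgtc
PEMT probe 2 and PEMT probe 3 are thus largely the same measurement, whereas PEMT probe 4 shares at most 8 bases in a row with any other PEMT probe. The tables list a start of 58 in its target transcript for PEMT probe 4, of 515 for PEMT probe 3 and of 793 for PEMT probe 1. No start is listed for PEMT probe 2, TMEM86B probe 2, LPCAT3 probe 1 or MFSD2A probe 3, whose names in the tables could not be checked against a genome here.

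Some animals stood apart from their breed over the whole array. On the first principal component of all kept probes, which carried 18.6% of the variance, 10 LW animals lay between -44.2 and -24.8, CR animals between 2.35 and 35.4, and LW TN replicates 1 and 6 in between at -4.83 and -3.04. F1 animals lay between -21.3 and 36.9, with HS replicates 1 and 2 and TN replicate 3 at the low end. On this component these 5 animals thus lay away from most animals with their breed label. In the animal numbers that the labels carry, LW TN replicates 1 and 6 and F1 HS replicates 1 and 2 follow each other, between the other LW and the other F1 animals. The number of F1 TN replicate 3 lies among those of the other F1 animals. All animals were kept under their labels, and whether a label is wrong was not tested. Without these 5 animals, and without LW TN replicates 1 and 6 alone, PEMT probe 4 was still the 1 probe of the 10 called for CR minus LW and for F1 minus LW.

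MFSD2A had the widest range of the 4 genes. Over the 36 animals the signal of MFSD2A probe 1, on the log2 scale of normalized intensity, went from 5.29 to 13.35, which is a 268-fold range. In LW, the TN animals lay between 7.95 and 10.52 with a median of 9.22, and the HS animals between 5.29 and 9.48 with a median of 7.75. In CR, the TN animals lay between 6.50 and 12.43 with a median of 8.46, and the HS animals between 5.47 and 9.60 with a median of 6.80. In F1, the TN animals lay between 8.18 and 13.35 with a median of 10.58, and the HS animals between 6.27 and 9.83 with a median of 6.87. The temperatures therefore overlapped in every breed, with the TN animals shifted upwards, and 16 of the 18 HS animals lay below the TN mean of their breed. The highest signals belonged to F1 TN replicate 3 and CR TN replicate 5. TN averaged 9.49 ± 1.85 (SD, n = 18), and HS averaged 7.33 ± 1.44 (SD, n = 18). The HS minus TN difference, adjusted for breed, was -2.16 (SE 0.52), or 4.46-fold lower in HS. Since the liver was measured as bulk tissue, fewer cells of a type and less RNA per cell cannot be told apart.

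The other 2 MFSD2A probes moved with the first, with a correlation over the 36 arrays of 0.94 for MFSD2A probe 2 and 0.84 for MFSD2A probe 3. They were dimmer. MFSD2A probe 1 was well above background on 34 arrays, MFSD2A probe 2 on 22 and MFSD2A probe 3 on 11. MFSD2A probe 2 was well above background on 15 of 18 TN arrays and on 7 of 18 HS arrays. Its measured HS minus TN difference of -1.10 (SE 0.30) rests on an HS group that is mostly near background. This difference was -2.44 with the scanner's processed signal and -0.80 with background correction, so its size depends on the processing. MFSD2A probe 3 was well above background on 9 of 18 TN arrays and on 2 of 18 HS arrays, so that it was kept mainly through its TN arrays, and no overall difference is given for it. Within LW it was well above background on 3 of 6 TN arrays and on 0 of 6 HS arrays. No fold is therefore given for LW either.

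**Figure D1:**
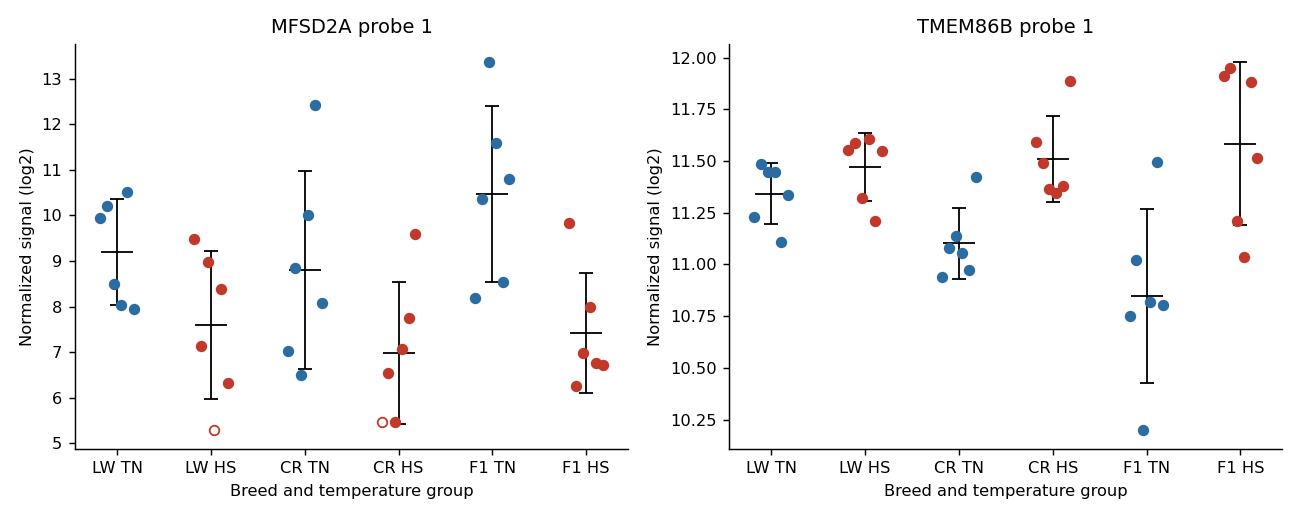
Normalized log2 signal of MFSD2A probe 1 (left) and TMEM86B probe 1 (right) in the 6 groups, with a point per animal (blue TN, red HS), a horizontal bar for the group mean and an error bar of 1 SD (n = 6); open points were not well above background. MFSD2A spreads from 5.29 to 13.35 and TMEM86B from 10.20 to 11.95, with HS lower for MFSD2A and higher for TMEM86B and with overlap in every breed.

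TMEM86B was bright and moved little, in the opposite direction. TMEM86B probe 1 was well above background on all 36 arrays and went from 10.20 to 11.95 on the log2 scale, a 3.37-fold range. In LW, the TN animals lay between 11.11 and 11.49 with a median of 11.39, and the HS animals between 11.21 and 11.61 with a median of 11.55. In CR, the TN animals lay between 10.94 and 11.42 with a median of 11.07, and the HS animals between 11.35 and 11.89 with a median of 11.43. In F1, the TN animals lay between 10.20 and 11.49 with a median of 10.81, and the HS animals between 11.03 and 11.95 with a median of 11.70. The overlap was wide in LW, whereas in CR and in F1 only 1 TN animal reached into the range of the HS animals. F1 TN replicate 3, which had the highest MFSD2A signal of all animals, had the lowest TMEM86B signal. The HS minus TN difference was 0.42 (SE 0.095), or 1.34-fold higher in HS, and 16 of 18 HS animals lay above the TN mean of their breed. TMEM86B probe 2 followed the first with a correlation of 0.98 over the 36 arrays and differed by 0.38 (SE 0.097).

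LPCAT3 and PEMT differed little between temperatures. LPCAT3 probe 1 averaged 8.19 ± 0.25 (SD, n = 18) over the TN animals against 8.08 ± 0.38 (SD, n = 18) over the HS animals, which differ by -0.10 (SE 0.10). The 4 PEMT probes differed by -0.14 to -0.17 on the log2 scale. PEMT probe 1, the brightest of the 10 probes, went from 13.30 to 14.27, a 1.95-fold range, with TN at 13.83 ± 0.20 (SD, n = 18) against HS at 13.68 ± 0.21 (SD, n = 18) on average. Between 6 and 8 of the 18 HS animals lay above the TN mean of their breed on the PEMT and LPCAT3 probes. At an adjusted p of 0.05, 3 of the 10 probes were called, MFSD2A probe 1 and both TMEM86B probes, against 0.859% of all 44796 probes tested; MFSD2A and TMEM86B were picked on this comparison, and nothing is read from that count. All 3 calls were lost when the arrays of any one of slides 1, 2, 4 or 5 were left out, while the differences kept their direction. The differences lay between -1.32 and -2.53 for MFSD2A probe 1 and between 0.35 and 0.51 for TMEM86B probe 1 over the 5 slides left out in turn.

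The arrays of a slide were scanned together, with equal numbers of TN and HS arrays. To compare within slides, the mean of each animal's breed over all arrays was subtracted first. On slide 1 the TN animals were LW and the HS animals CR and F1, so no breed is compared with itself there. After the subtraction MFSD2A probe 1 was lower in HS on each of the 5 slides, with differences from -0.98 on slide 5 to -4.96 on slide 4. TMEM86B probe 1 was higher in HS on each slide, by 0.14 to 0.69. Leaving out any single array kept the overall difference of MFSD2A probe 1 between -1.94 and -2.33.

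For MFSD2A and TMEM86B the difference between temperatures was largest in F1. MFSD2A probe 1 differed by -1.59 (SE 0.90) in LW, -1.83 (SE 0.90) in CR and -3.05 (SE 0.90) in F1, which is 3.02-fold, 3.56-fold and 8.27-fold lower in HS. TMEM86B probe 1 differed by 0.13 (SE 0.15) in LW, 0.41 (SE 0.15) in CR and 0.73 (SE 0.15) in F1. PEMT probe 4 differed by 0.11 (SE 0.13) in LW, -0.26 (SE 0.13) in CR and -0.25 (SE 0.13) in F1. Whether the breeds differed in these values was tested with the breed by temperature interaction, which did not choose the genes. In limma's moderated F test over all 44796 probes no probe passed (0% called; 1676 probes had an unadjusted p under 0.05), and none of the 10 probes did. The smallest values among them were those of TMEM86B probe 1 (unadjusted p = 0.0294, adjusted p = 0.995) and TMEM86B probe 2 (unadjusted p = 0.021, adjusted p = 0.995). For MFSD2A probe 1 the unadjusted p was 0.482. The order LW, CR, F1 was thus not distinguished from the spread between animals.

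**Figure D2:**
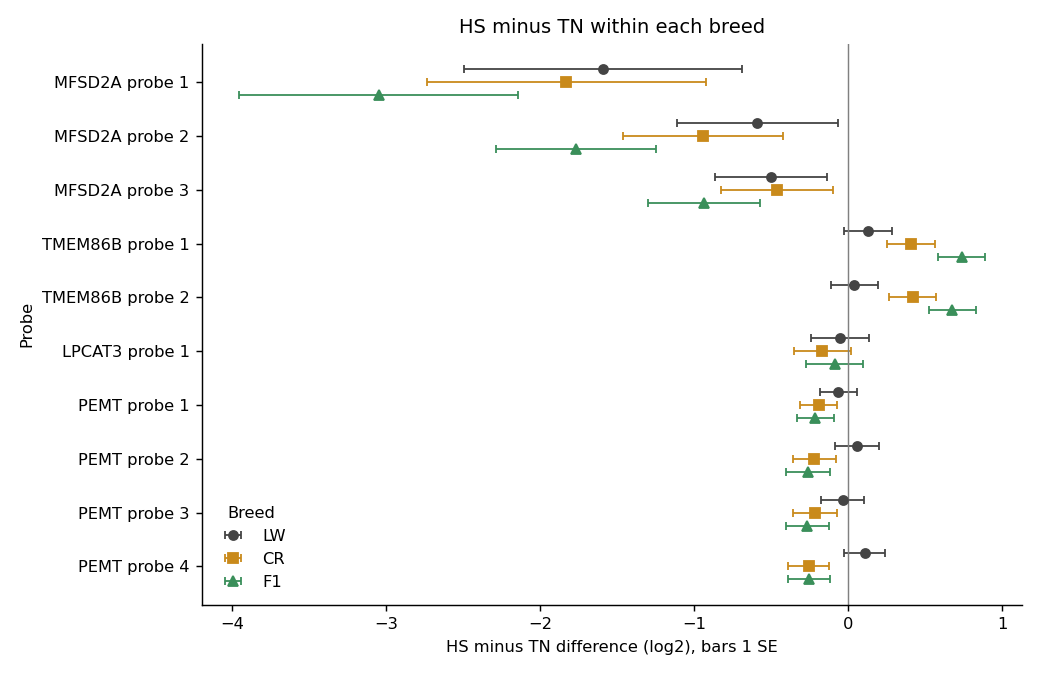
HS minus TN difference on the log2 scale of the 10 probes in LW (circles), CR (squares) and F1 (triangles), with bars of 1 SE from the model of the 6 groups (n = 6 animals per group). F1 lies farthest from 0 for MFSD2A (-3.05 for probe 1) and TMEM86B (0.73 for probe 1), and the LPCAT3 and PEMT probes lie near 0. MFSD2A probe 3, mostly not above background in HS, is drawn at its measured values, whose size cannot be read.

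The F1 values rest in part on the animals that stood apart from their breed. Without those 5 animals, a choice made after seeing the data, the F1 difference between temperatures of TMEM86B probe 1 fell from 0.73 to 0.43 and that of MFSD2A probe 1 went from -3.05 to -2.78. None of the 10 probes was then called for HS minus TN.

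The breed comparisons, with temperature in the model, did not choose the genes and were tested with limma. MFSD2A and TMEM86B were not distinguished between breeds. MFSD2A probe 1 was 0.50 lower in CR than in LW (difference -0.50, 95% interval -1.79 to 0.79, adjusted p = 0.609), and 0.55 higher in F1 than in LW (95% interval -0.73 to 1.84, adjusted p = 0.597). Its F1 minus CR difference was 1.05 (95% interval -0.24 to 2.34, adjusted p = 0.544). TMEM86B probe 1 differed by -0.10 between CR and LW (95% interval -0.34 to 0.14, adjusted p = 0.569) and by -0.19 between F1 and LW (95% interval -0.43 to 0.046, adjusted p = 0.266). LPCAT3 probe 1 differed by 0.049 between CR and LW (95% interval -0.21 to 0.31, adjusted p = 0.822). Against the mean of both parental breeds, F1 showed no called probe among the 10, where 1.12% of all probes were called. F1 minus the parental mean was 0.80 for MFSD2A probe 1 (95% interval -0.31 to 1.92, adjusted p = 0.503) and -0.14 for TMEM86B probe 1 (95% interval -0.35 to 0.065, adjusted p = 0.529). Between F1 and CR none of the 10 probes was called, against 1.5% of all probes.

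The spread among animals was widest in F1 for TMEM86B, whose SD over 12 animals was 0.16 for LW, 0.28 for CR and 0.55 for F1. For MFSD2A probe 1 the SD was 1.58 for LW, 2.04 for CR and 2.24 for F1. These SDs hold both temperatures, and their differences were not tested. Within a single group, the SD of TMEM86B probe 1 was 0.42 in F1 TN and 0.39 in F1 HS against 0.15 in LW TN and 0.16 in LW HS.

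PEMT gave the one breed difference, and on 1 of its 4 probes only. PEMT probe 4 had a mean of 11.00 ± 0.30 (SD, n = 12) in LW, 10.68 ± 0.27 (SD, n = 12) in CR and 10.65 ± 0.18 (SD, n = 12) in F1. It lay between 10.37 and 11.41 in LW, between 10.24 and 11.07 in CR, and between 10.40 and 10.94 in F1, so that the breeds overlapped. CR minus LW was -0.32 (SE 0.099, adjusted p = 0.0143 in limma) and F1 minus LW was -0.36 (SE 0.099, adjusted p = 0.012 in limma), or 1.25-fold and 1.28-fold lower than in LW. This is 1 of 10 probes in each comparison, where 26.5% of all probes were called for CR minus LW and 18.4% for F1 minus LW, so a call of this kind is common on this array. With slide as a block in the limma model the differences were -0.30 (adjusted p = 0.00771) and -0.35 (adjusted p = 0.00496). Without slide 3 the adjusted p in limma was 0.121 for CR minus LW and 0.0926 for F1 minus LW, and without slide 4 it was 0.101 and 0.105. PEMT probes 1, 2 and 3 were not called, with CR minus LW differences of 0.012, -0.050 and -0.088.

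Whether PEMT probe 4 departed from the other PEMT probes was then asked directly, in a test chosen after these values had been seen. In each animal the mean of PEMT probes 1, 2 and 3 was subtracted from PEMT probe 4. This removes a change of the same log2 size on all 4 probes, whereas a change of unequal size can remain. On the log2 scale LW averaged -1.64 ± 0.17 (SD, n = 12), CR -1.92 ± 0.095 (SD, n = 12) and F1 -1.89 ± 0.19 (SD, n = 12). CR was 0.28 below LW (difference -0.28, permutation test within temperatures, two-sided, p = 0.0002, adjusted p = 0.0006 over 3 comparisons) and F1 was 0.25 below LW (difference -0.25, permutation p = 0.00352, adjusted p = 0.00528). F1 and CR differed by 0.029 (SE 0.063, permutation p = 0.657). The values ran from -2.05 to -1.43 in LW, from -2.04 to -1.73 in CR and from -2.19 to -1.57 in F1.

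The lowest LW values belonged to LW TN replicate 6 (-2.05) and LW TN replicate 1 (-1.84), the same animals that stood apart from LW on the first principal component. The other 10 LW animals lay between -1.72 and -1.43, above all 12 CR animals, whose highest value was -1.73. Setting LW TN replicates 1 and 6 aside was a choice made after seeing the data. In F1 the highest values were those of HS replicate 2 (-1.57), HS replicate 1 (-1.72) and TN replicate 5 (-1.72). The first 2 of these lay towards LW on that component and TN replicate 5 did not (1.76), while TN replicate 3, which did, had a value of -1.78. Without LW TN replicates 1 and 6 the differences were -0.34 for CR minus LW and -0.31 for F1 minus LW. Within slides, CR minus LW was below 0 on each of the 5 slides, from -0.44 to -0.077, and so was F1 minus LW, from -0.43 to -0.043, with 1 to 3 animals of a breed on a slide. Litter, which the labels do not give, was not tested. The correlation of PEMT probe 4 with PEMT probe 1 over the 36 arrays was 0.58 and that with PEMT probes 2 and 3 was 0.78, against 0.92 to 0.93 among these 3.

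**Figure D3:**
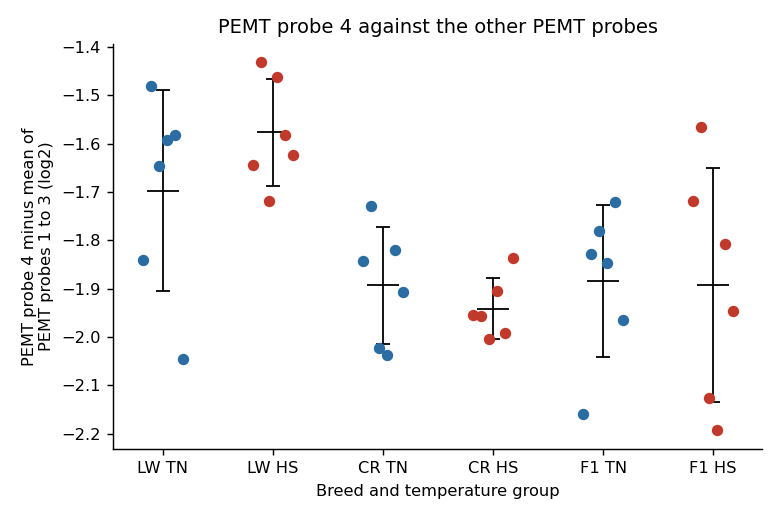
PEMT probe 4 minus the mean of PEMT probes 1 to 3 (log2) in each animal by breed and temperature (blue TN, red HS), with the group mean as a horizontal bar and an error bar of 1 SD (n = 6). LW averages -1.64, CR -1.92 and F1 -1.89, and 2 LW TN animals lie at -1.84 and -2.05 with the CR animals.

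Markers of some other liver cell types moved with breed as well. Among 6 measured Kupffer cell or macrophage markers, all had negative differences from LW, and 5 were called lower in CR and 5 in F1, where 25.9% and 17.3% of all named genes were called in either direction. CD163 differed by -1.16 between CR and LW (adjusted p = 1.08e-07 in limma). Their summed linear signal lay between 34739 and 61602 in LW, between 20371 and 31724 in CR and between 20675 and 47930 in F1. Among 5 endothelial markers, 4 were called lower in CR and 3 in F1, and among 6 lymphocyte markers 3 and 2. In each of these lists 1 marker had a positive difference from LW. Of 7 stellate cell or fibroblast markers 0 were called in CR and 1 was called lower in F1. Of 5 cholangiocyte markers 1 was called higher in CR and 0 were called in F1. None of 3 erythroid or blood markers was called. Of 8 hepatocyte markers 1 was called lower in CR and 0 were called in F1. Their summed signal lay between 1906940 and 2102960 in LW, between 1875080 and 2013520 in CR and between 1909930 and 2023490 in F1. The part of cell type in the PEMT breed difference was not tested. For HS minus TN no marker of these lists was called, and the Kupffer cell sum lay between 20644 and 61602 in TN and between 20371 and 55785 in HS.

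The 4 genes were also compared animal by animal, in 6 pairs of brightest probes examined after the values had been seen. The mean of each labelled group was subtracted, which removes the mean differences between breeds and temperatures as labelled. What sets single animals apart from their breed label remains in these values. The correlations were not rerun without the animals that stood apart on the first principal component. TMEM86B and PEMT ran against each other (Pearson's r = -0.53, permutation p = 0.00728, adjusted p = 0.0218 over 6 pairs; Spearman's rho = -0.58, permutation p = 0.00063, adjusted p = 0.00378; n = 36). Without the 2 animals farthest from the median of TMEM86B, F1 TN replicates 1 and 3, r was -0.60. It was -0.42 within TN and -0.64 within HS, and -0.49 with slide means removed as well. Of the 10502 other genes compared, 2.61% had a correlation with TMEM86B as low as that of PEMT.

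TMEM86B and LPCAT3 ran together (r = 0.53, permutation p = 0.00726, adjusted p = 0.0218; rho = 0.44, permutation p = 0.0212, adjusted p = 0.0637; n = 36). Without the same 2 animals r was 0.60, and it was 0.42 within TN, 0.62 within HS and 0.65 with slide means removed. Of the other genes, 2.1% had a correlation with TMEM86B as high as that of LPCAT3. Without slide 5 both relations no longer passed, with r = -0.41 (permutation p = 0.102) for PEMT and r = 0.44 (permutation p = 0.0839) for LPCAT3. LPCAT3 and PEMT gave r = -0.36 (permutation p = 0.068, adjusted p = 0.136).

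MFSD2A and TMEM86B showed no relation past the threshold once the group means were removed. Over all 36 animals their correlation was -0.55, but both genes were chosen for their difference between temperatures, so that a value of this sign follows from the choice. Within groups r was -0.26 (permutation p = 0.155, adjusted p = 0.233) and rho -0.20 (permutation p = 0.27, adjusted p = 0.405). Without F1 TN replicate 3 and CR TN replicate 5 r was -0.11. It was -0.53 within TN and 0.052 within HS, and the difference between the temperatures was not tested. Within groups, MFSD2A gave r = 0.048 with LPCAT3 (permutation p = 0.788) and r = -0.0046 with PEMT (permutation p = 0.98).

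**Figure D4:**
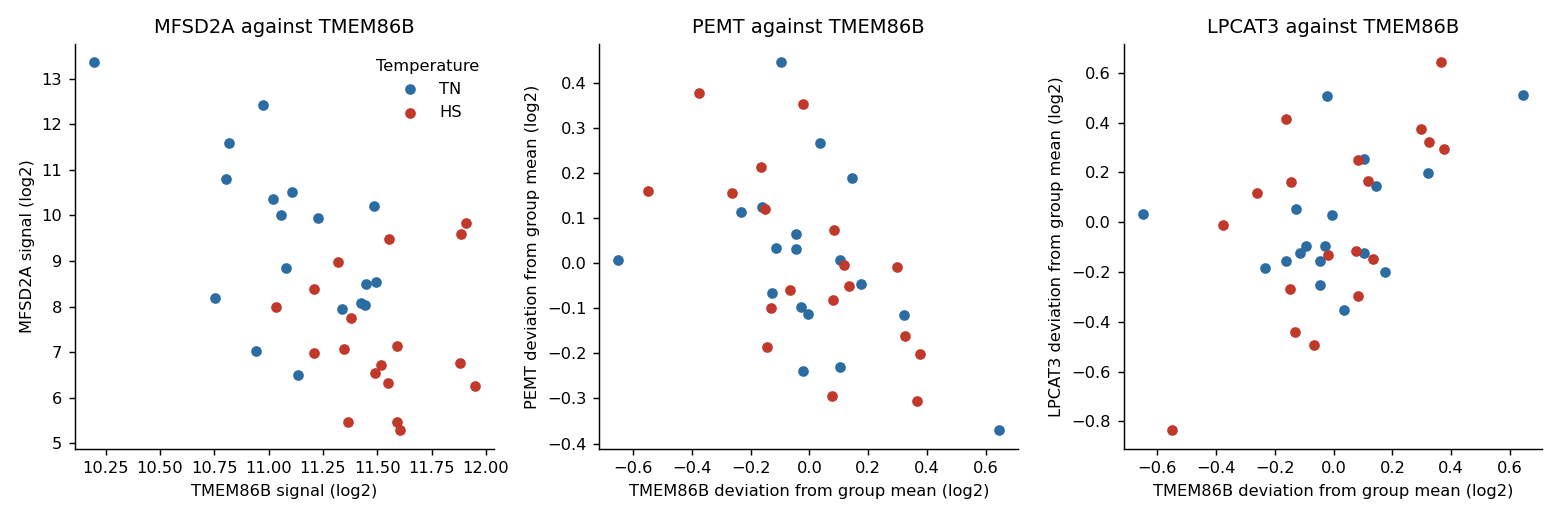
Each point is an animal (blue TN, red HS). The left panel sets the log2 signal of MFSD2A probe 1 against that of TMEM86B probe 1, and the other panels set PEMT probe 1 and LPCAT3 probe 1 against TMEM86B probe 1 after the group mean was subtracted from each. Within groups PEMT falls (r = -0.53) and LPCAT3 rises (r = 0.53) with TMEM86B, while the temperatures overlap for MFSD2A.

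The gene whose brightest probe was most like MFSD2A over the 36 arrays was APOA4, an apolipoprotein of triglyceride-rich lipoproteins (r = 0.83, and 0.80 with group means removed). The signal of the APOA4 probe went from 10.78 to 17.85 on the log2 scale, and its HS minus TN difference of -1.95 was not called (adjusted p = 0.0901 in limma). DESI2 (r = 0.77), CLDN14, a tight junction protein (r = 0.77), SPTY2D1 (r = 0.76) and SEC23A, a coat protein of vesicles that leave the endoplasmic reticulum (r = 0.74), came next. At the other end stood SAT1, which acetylates polyamines (r = -0.80) and YAP1, the effector of the Hippo pathway (r = -0.75). For SEC23A, SAT1 and YAP1 the correlations with group means removed were 0.73, -0.77 and -0.72. For DESI2, CLDN14 and SPTY2D1 they fell to 0.68, 0.67 and 0.66. CLDN14 was itself called for HS minus TN (-0.71, adjusted p = 0.0487 in limma). These are descriptions over arrays that share breed, temperature and slide.

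For TMEM86B the highest correlations were with C1ORF116 (r = 0.86), the tight junction protein TJP3 (r = 0.81), PNMA1 (r = 0.79), ADH5, the formaldehyde-oxidizing alcohol dehydrogenase (r = 0.78), and PALMD (r = 0.76). The lowest were with the Golgi protein GCC1 (r = -0.84), ZFYVE27 (r = -0.83) and the kinase CSNK1G2 (r = -0.82). With group means removed these lay between 0.60 and 0.72 at the high end and between -0.82 and -0.75 at the low end. LPCAT3 was most like PGAM1, an enzyme of glycolysis (r = 0.73), and the mitochondrial protease HTRA2 (r = 0.70). PEMT was most like C2H19orf24 (r = 0.79), the chaperonin subunit CCT7 (r = 0.72) and GMDS, which makes GDP-fucose precursors (r = 0.71).

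Few listed genes of lipid metabolism and its regulation were called between temperatures. The lists cover lysophospholipids and phospholipids, polyunsaturated fatty acids, and genes of PPARA, fasting and LXR regulation. Of 180 listed genes, 132 were measured, and 3 were called for HS minus TN (2.27%, against 0.951% of all 10511 named genes). The lists were written with earlier results of these data known, so nothing is read from this share. All 3 were lower in HS and none was higher. ELOVL2, which elongates polyunsaturated fatty acids towards docosahexaenoic acid, differed by -1.39 (adjusted p = 0.0224 in limma), with all 8 of its probes called. FADS2, the delta-6 desaturase, differed by -0.49 (adjusted p = 0.00912 in limma), with 1 of 2 probes called. S1PR1, a receptor for sphingosine 1-phosphate, differed by -0.45 (adjusted p = 0.0473 in limma). Under 12 alternatives the number of listed genes called lower lay between 2 and 4. Leaving out a single array or a slide was not run for these lists.

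None of 12 acyltransferases of the Lands cycle, which rebuilds phospholipids after a chain was removed, was called for HS minus TN (median difference 0.012). Nor was any of 32 phospholipases and lysophospholipases (median -0.021), 6 genes of ether lipids and plasmalogens (median 0.029), 7 genes of phosphatidylcholine and phosphatidylethanolamine synthesis (median -0.044), 12 genes of methyl donors and choline oxidation (median 0.034) or 19 transporters (median 0.018). The median over all named genes was -0.0039. From a list of PPARA, other regulators and targets of PPARA and fasting, 19 genes were measured. Of these, 15 had a negative difference and 4 a positive one, with a median of -0.13, and none passed the test. Examples are ANGPTL4, an inhibitor of lipoprotein lipase (-0.66, adjusted p = 0.0725 in limma), and CPT1A, which admits fatty acids to mitochondria (-0.67, adjusted p = 0.168 in limma). Of 9 measured genes from a list of LXR targets and the LXR receptors themselves, known to act on LPCAT3, 7 had a positive difference and none was called.

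**Figure D5:**
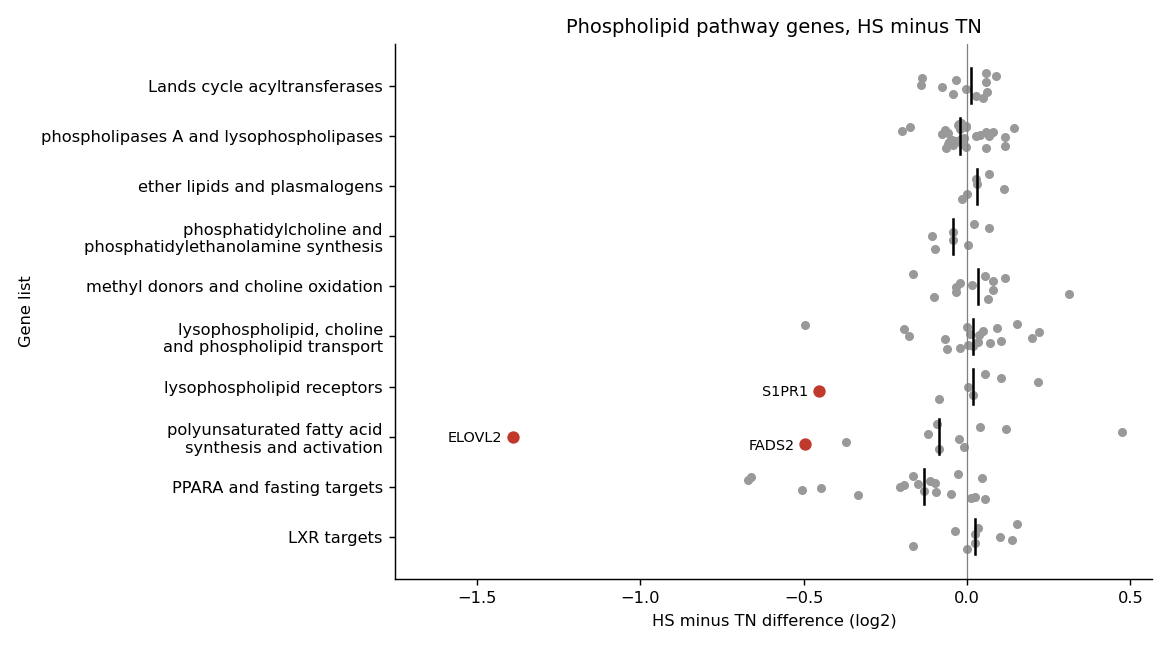
HS minus TN difference (log2) of the 132 measured genes of 10 lists, with a point per gene, a black bar at the median of a list and the called genes in red with their names. The 3 called genes, ELOVL2 (-1.39), FADS2 (-0.49) and S1PR1 (-0.45), all lie below 0, and the medians lie between -0.13 and 0.034.

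Between breeds, the same 132 genes were called about as often as all genes. For CR minus LW, 17 were higher and 17 lower (25.8%, against 25.9% of all named genes), with PLTP, the phospholipid transfer protein of plasma, at -1.13 (adjusted p = 6.75e-07 in limma) and ACSL4, which activates arachidonic acid, at 0.88 (adjusted p = 0.0109 in limma). Among the genes nearest to the 4 described, PLA2G4A, the cytosolic phospholipase A2, was lower in CR at -0.68 (adjusted p = 0.00026 in limma), hepatic lipase LIPC was lower at -0.59 (adjusted p = 2.29e-05 in limma), and LPCAT1 was lower at -0.21 (adjusted p = 0.0318 in limma). PCYT1A, the rate-limiting enzyme of the other route to phosphatidylcholine, was higher in CR at 0.42 (adjusted p = 0.00104 in limma). BHMT, which remethylates homocysteine with betaine, was higher at 0.55 (adjusted p = 2e-05 in limma). For F1 minus LW, 6 of the 132 were higher and 11 lower (12.9%, against 17.3% of all named genes), and for F1 minus CR, 2 were higher and 2 lower (3.03%, against 1.78%). PLTP lay between its parental breeds in F1, with -0.55 against LW (adjusted p = 0.00659 in limma) and 0.57 against CR (adjusted p = 0.0254 in limma).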

How the data were processed

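Liver RNA of 36 pigs was measured on 1-colour Agilent arrays. The authors deposited scanner tables from Agilent Feature Extraction 10.10.1.1, whose signal columns are spot intensity values not normalized between arrays, and a table of log2 values, described as quantile normalized, that the values show to be centred per probe, so it gives differences and no levels. The tables also hold flags for spots. Arrays lay on 5 slides of 4 or 8 arrays, each scanned once. Of 60306 non-control spots, an array had 39644 to 44025 well above background and none saturated. Precision is limited by how many arrays there were.

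Here the median signal was log2 transformed and quantile normalized, 107 non-uniform spots were set as missing, and 44796 of 60305 probes that were well above background on at least 6 arrays were kept. Probes were named through the tables and RefSeq (Sscrofa11.1), which named 25947 spots. limma 3.58.1 in R 4.3.3 fitted breed and temperature, or the 6 groups, with two-sided moderated tests, Benjamini-Hochberg adjustment and a threshold of 0.05. The study's random effects (pen, slaughter day, father, mother) are not in the labels and were not fitted. Groups came from the labels. The genes and lists were chosen with earlier results of these data known. The brightest probe stands for a gene in the lists and likeness comparisons. The likeness rule named the 5 highest and 3 lowest correlations for MFSD2A and TMEM86B and the 3 highest for LPCAT3 and PEMT. Of the listed genes, all those called for HS minus TN were named, and for breeds at most the 3 with the greatest difference per list; ANGPTL4, CPT1A and CD163 were added after their values were seen. Some genes that these rules name are not reported here. Permutation tests drew 100000 resamples. The fits were tested on simulated data. Alternatives changed the signal column, background correction, scaling, filter, spread estimate and model terms, used the deposited log2 table, or left out an array, a slide or the animals standing apart on the first principal component.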

Additional observations from a re-analysis of the deposited data

Results flagged for a closer look

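In 60 checks of a group of 6 animals on a probe, 5 had an extreme animal whose gap to its neighbour, as a share of the group's range, passed the 95% critical value of Dixon's test, which chance gives in about 1 of 20 groups. On MFSD2A probe 3, F1 TN replicate 3 was highest at 8.45 against 6.41 for the next animal (gap 0.633 of the range), and F1 HS replicate 1 was highest at 5.93 against 5.33 (0.653). On LPCAT3 probe 1, F1 TN replicate 5 was highest at 8.67 against 8.19 (0.671). LW HS replicate 6 was lowest on PEMT probe 2, at 11.82 against 12.29 (0.736), and on PEMT probe 3, at 11.50 against 11.88 (0.662). Since PEMT probe 2 and PEMT probe 3 share 36 bases, these last values are largely the same observation.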

How the results depend on the processing

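No analysis paired by litter was possible because the labels do not give the litter. The HS minus TN differences of the probes other than MFSD2A probe 3 and the CR and F1 differences from LW of PEMT probe 4 kept their sign under every alternative run. Of the 3 probes called for HS minus TN, 1 was left with median scaling and 1 without slide 3, and 0 without slide 1, slide 2, slide 4 or slide 5 or without the 5 animals that stood apart (chosen after seeing the data); with a single array left out the count lay between 1 and 4. TMEM86B probe 2 was called with only 11 of the 36 arrays left out in turn (adjusted p in limma up to 0.0806) and under 7 of 12 other alternatives. TMEM86B probe 1 was called with each of the 36 arrays left out, and MFSD2A probe 1 was lost in 11 cases: CR HS 1 and 3, CR TN 5, LW TN 2, LW HS 4 and 6, F1 HS 2, 5 and 6, and F1 TN 3 and 4. Leaving out a slide removes up to 8 arrays. PEMT probe 4, the 1 probe called for CR minus LW and for F1 minus LW, was lost (0 called) without slide 3 and without slide 4, and without the 5 animals it was also called against the parental mean (1 probe instead of 0). Without slide 5, TMEM86B gave r = -0.41 with PEMT and 0.44 with LPCAT3 and neither passed. The counts of listed genes were not rerun with a single array or a slide left out. Of the listed genes, 1 became called higher in HS with the processed signal, the authors' log2 table, array weights and without LW TN replicates 1 and 6. For F1 minus CR, genes called lower went from 2 to 1 (processed signal) or 0 (authors' table, median scaling), and genes called higher from 2 to 1 (median scaling, no filter, trended spread). For F1 minus LW, genes called lower went from 11 to 21 without the 5 animals. Over all probes, the 385 calls for HS minus TN became 210 without the breed term, 227 with median scaling, 70 to 148 with a slide left out and 202 to 529 with an array left out. Calls for CR minus LW fell from 11856 to 5688 without slide 3. Those for F1 minus LW went from 8222 to 14486 without the 5 animals and 1576 without slide 3, those for F1 minus CR from 674 to 1072 and 120, and those against the parental mean from 502 to 7624 without the 5 animals, 301 with median scaling and 1668 with array weights. The causes were not tested. MFSD2A probe 3, near background, was the value most limited by signal.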
